A study of Mus musculus with 42 samples.

Results

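Expression was compared between Thy1+ testis cells of mice that lacked CHD8 in the germline and Thy1+ cells of their controls, with libraries of the same replicate number treated as pairs. The comparison used 6 of the 12 RNA-seq libraries of the series, which has 42 samples in all, with 3 control and 3 mutant libraries and 17416 genes tested of 27179 in the count table. Both groups were C57BL/6J male pups at 10 dpp (days post-partum). Control pups were Ddx4-Cre/Chd8+/F, so that they too carried the Cre transgene and 1 floxed Chd8 allele, and mutant pups (CKO) were Ddx4-Cre/Chd8F/-, with 1 floxed and 1 deleted allele. Ddx4-Cre removes the floxed segment in germ cells, so that control germ cells kept 1 working copy of Chd8 and mutant germ cells 0, while somatic cells kept 2 copies in controls and 1 in mutants.

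Testes were digested, cells that adhered to a dish were discarded, c-Kit+ cells were taken out with magnetic beads, and the flow-through was bound to beads against Thy1 (CD90.2), a surface protein of undifferentiated spermatogonia that some stromal and immune cells carry as well. The study's methods say that cells were taken from 3 male pups per analysis and that mutants were set against littermates of the control genotype. They do not say that 1 replicate is 1 pup or that a shared replicate number marks a litter. The p-values rest on the spread left among these libraries once the replicate number is fitted. Whether this is a spread between animals is not known. Total counts were 36477170 to 45396230 in the control libraries and 32266860 to 43622640 in the mutant libraries, and replicate libraries of 1 genotype differed by more than counting noise (chi-square per degree of freedom of 30.5 to 76.8).

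CHD8 is an ATP-dependent chromatin remodeler that binds near the transcription start sites of active genes and is best known as a gene mutated in autism. In the mouse testis of this age, undifferentiated spermatogonia hold the stem cell pool and depend on GDNF, which signals through the receptor pair GFRA1 and RET. Retinoic acid turns part of them into differentiating, KIT-bearing spermatogonia, which switch on STRA8 and a programme of meiotic genes that build the chromosome axis, the synaptonemal complex and the recombination machinery.

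Promoter sequence is shown for 3 genes: Prss50 and Meioc, which are among the genes that fell furthest in the mutant, and Prnd, among those that rose furthest. They were picked among genes whose promoter held a match to a motif searched, so a match in them is no result. Of the other genes that fell furthest, Gal3st1, Gm21708, Otud6a and BC051142 held no match. Each sequence shown is the 250 bases before the RefSeq transcription start (GRCm38.p6, plus strand), from chr9:110857714-110857963, chr11:102665335-102665584 and chr2:131950611-131950860. Capitals mark matches, on either strand, to 4 motifs searched by their letters: CACGTG (an E-box), GCGGGA (an E2F-type site), CCGGAAG (an ETS-type site) and CNCCTCAG (the core of the STRA8 motif).
Prss50: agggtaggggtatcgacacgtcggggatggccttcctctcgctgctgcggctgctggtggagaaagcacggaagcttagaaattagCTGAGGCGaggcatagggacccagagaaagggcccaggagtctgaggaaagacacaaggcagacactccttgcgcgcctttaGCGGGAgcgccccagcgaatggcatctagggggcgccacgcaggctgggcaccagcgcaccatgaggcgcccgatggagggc
Meioc: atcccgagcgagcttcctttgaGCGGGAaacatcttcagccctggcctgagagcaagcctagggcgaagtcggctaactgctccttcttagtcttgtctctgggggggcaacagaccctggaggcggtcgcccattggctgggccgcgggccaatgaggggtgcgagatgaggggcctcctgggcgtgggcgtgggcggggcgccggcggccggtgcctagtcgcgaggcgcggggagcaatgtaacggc
Prnd: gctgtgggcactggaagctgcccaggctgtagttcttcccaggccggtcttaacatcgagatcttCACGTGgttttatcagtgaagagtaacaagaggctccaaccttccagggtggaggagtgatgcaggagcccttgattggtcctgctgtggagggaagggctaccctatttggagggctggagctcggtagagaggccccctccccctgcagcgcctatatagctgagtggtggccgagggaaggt
The Prss50 window held GCGGGA 82 bases before the start and a reverse-strand match to CNCCTCAG 164 bases before it, the Meioc window GCGGGA 228 bases before the start, and the Prnd window CACGTG 185 bases before the start. Over the 13143 tested genes with a promoter in the table, windows of this length held GCGGGA in 28.4%, CCGGAAG in 12.1%, CACGTG in 8.22% and CNCCTCAG in 7.37%. A promoter was at hand for 648 of the 856 genes called lower and 373 of the 558 called higher. Because both shares are under 80%, the comparison of motif content between the sets is void.

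The libraries were first checked against their labels. The Thy1 gene stood at 11.7 to 14.2 CPM (read counts relative to library size, scaled by TMM, the trimmed mean of M-values, here over all 12 libraries) in the Thy1+ controls and at 0.436 to 0.932 CPM in the c-Kit+ controls, and Gfra1 at 53.6 to 94.3 CPM against 3.96 to 4.35 CPM. Kit was lower in the Thy1+ controls, at 171 to 393 CPM against 626 to 716 CPM, and Ddx4, a marker of all germ cells, reached 273 to 385 CPM against 373 to 458 CPM. The summed level of 10 stromal markers was 11453 to 14944 CPM in the Thy1+ controls and 1878 to 2359 CPM in the c-Kit+ controls. Zbtb16 was at 189 to 240 CPM against 105 to 114 CPM, and Stra8 at 139 to 344 CPM against 522 to 622 CPM. The 18 Sertoli cell markers summed to 776 to 3136 CPM in the Thy1+ controls and 852 to 2129 CPM in the c-Kit+ controls. The Thy1+ libraries thus held transcripts of undifferentiated and differentiating spermatogonia together with those of stromal and Sertoli cells. In these bulk samples fewer cells of a type and less RNA per cell cannot be told apart.

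Within the Thy1+ libraries, marker levels moved with the replicate number as well as with the genotype. The summed level of the 18 Sertoli cell markers was 3055, 770.3 and 880.3 CPM in the controls and 4104, 1453 and 1610.1 CPM in the mutants, here and below in the order of replicates 1, 2 and 3. Replicate 1 was the highest of both genotypes, and the mutant library was the higher of each pair. The 10 stromal markers summed to 13871, 11367 and 14551 CPM in the controls and 16889, 12745 and 19386 CPM in the mutants, and the 8 Leydig cell markers to 387, 299 and 511 CPM and 468, 425 and 646 CPM, with the mutant again higher in every pair. The 11 pan-germ-cell markers went the other way, with 2388, 3629.5 and 2575 CPM in the controls and 1772, 2989 and 1889 CPM in the mutants: replicate 2 was the highest of both genotypes and the mutant the lower of each pair. None of these 4 lists separated the 3 mutant libraries from the 3 control libraries.

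**Figure D1:**
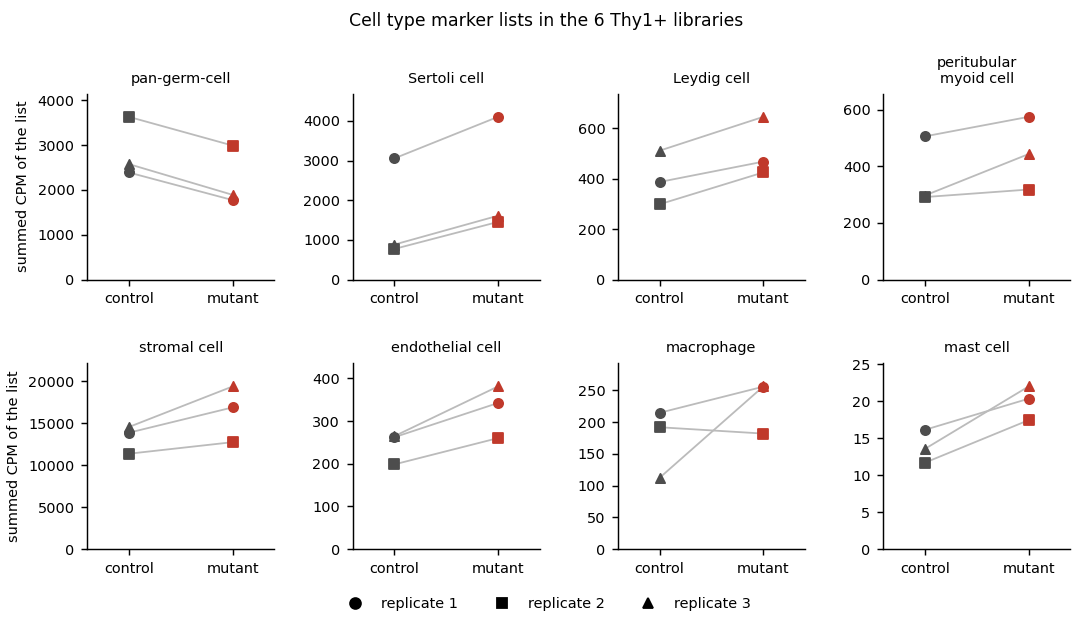
Summed CPM of 8 cell type marker lists (vertical axes, each from 0) in the 3 control and 3 mutant Thy1+ libraries, with lines joining libraries of the same replicate number. Sertoli cell markers ran from 770.3 to 3055 CPM in controls and from 1453 to 4104 CPM in mutants, while pan-germ-cell markers ran from 2388 to 3629.5 and from 1772 to 2989 CPM.

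Chd8 transcript was at 271, 269.6 and 252 CPM in the controls and 292, 256 and 262 CPM in the mutants (log2 fold change 0.03 ± 0.05, FDR = 0.707), and the groups overlapped. The count covers the whole gene, whereas the floxed segment is a small part of it, and somatic cells keep the gene, so this level does not check the deletion. Thy1 was at 13.9, 11.7 and 11.5 CPM in the controls and 11.97, 16.9 and 14.3 CPM in the mutants (log2 fold change 0.21 ± 0.14, FDR = 0.262), and Kit at 167, 390.5 and 290.5 CPM in the controls and 226, 428 and 280.2 CPM in the mutants (log2 fold change 0.17 ± 0.07, FDR = 0.0759). Neither surface marker used in the sort passed the test.

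The question put to these libraries was which genes differ in level between mutant and control Thy1+ cells. A gene was called, and is said below to have risen or fallen, where edgeR's quasi-likelihood test with the replicate number as a block gave a Benjamini-Hochberg FDR under 0.05 and the log2 fold change (mutant minus control) was beyond 0.5 in size. By this rule 856 genes (4.92% of those tested) fell and 558 (3.2%) rose in the mutant, 8.12% in all. These shares over all genes are the background for the list counts below. Of the falls, 325 of the 856 were beyond 1 on the log2 scale, against 74 of the 558 rises. The median over all genes tested was 0.03. The split depends on the scaling: with the libraries scaled to the 11 pan-germ-cell markers in place of TMM, which moved the median from 0.03 to 0.47, 300 genes (1.72%) were lower and 6786 (39%) higher, 297 of the 856 among the former. That scaling raises every gene by about the same amount and rests on markers that were themselves lower in the mutant, so the values given under it below are values on another scale and say nothing particular to a list. For 1727 genes (9.92%) every mutant library lay below every control library, and for 1288 (7.4%) every mutant library lay above.

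The calls rest on the pairing. Without the block, 0 genes passed, with 2151 at an unadjusted p under 0.05 and a lowest FDR of 0.141, and edgeR's exact test without the block called 274 lower and 20 higher, all of them among the paired calls. The biological coefficient of variation was 8.30% with the block and 20.9% without it. The replicate number itself had an effect at FDR under 0.05 on 6569 genes (37.7%), led by Aard, Cdh23, Cst12, Tmem114 and Cpe, each highest in replicate 1. Of these 6569 genes, 2234 were highest in replicate 1 and 2687 in replicate 2. Of the 558 genes called higher, 366 (65.6%) also differed by replicate number. Of these, 254 were highest in replicate 1, where Sertoli cell markers were highest. Of the 856 called lower, 366 (42.8%, near the 37.7% over all genes) did so. Of these, 330 were highest in replicate 2, where pan-germ-cell markers were highest. The part of these markers in the calls was not tested. Leaving out the pair of replicate 1, 2 or 3 gave 766, 812 and 758 genes lower and 709, 420 and 430 higher.

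**Figure D2:**
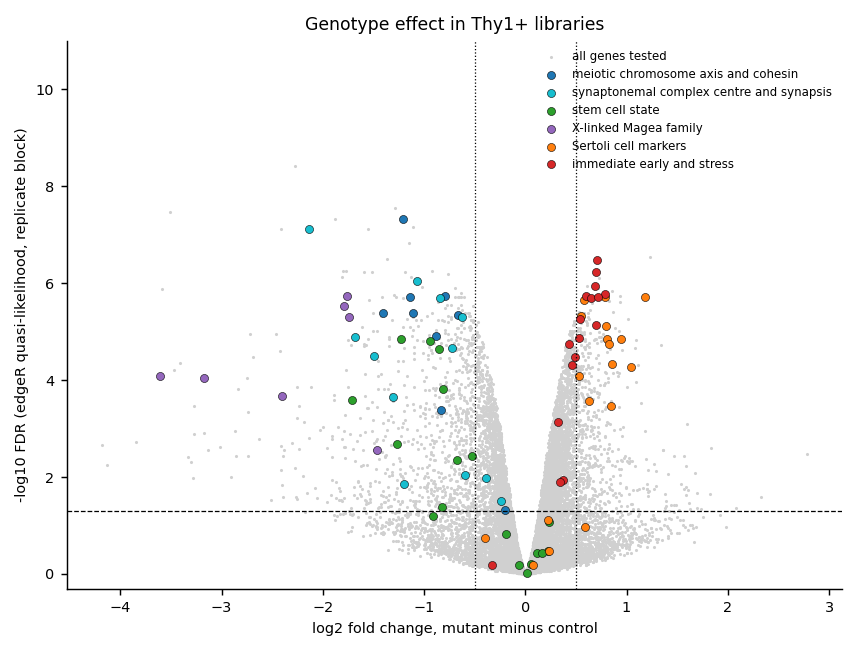
Log2 fold change, mutant minus control (horizontal axis), against -log10 FDR from the paired edgeR quasi-likelihood test (vertical axis) for 17416 genes in grey, with 6 gene lists in colour; the dashed line marks FDR 0.05 and the dotted lines a log2 fold change of 0.5 in either direction. All 7 Magea genes, 8 of 9 axis genes and 10 of 12 synaptonemal complex genes lie to the left of the lower limit, and 13 of 18 Sertoli cell markers and 10 of 17 immediate early genes to the right of the upper limit, in each case above the dashed line.

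Among genes with a symbol, a mean log2 CPM of at least 1 and the same direction in all 3 pairs, the 12 that fell furthest were Ly6k, Prss50, Gal3st1, Gm21708, Dnah5, Otud6a, Aox4, Meiob, Pkd2l1, Meioc, Shoc1 and BC051142, with log2 fold changes of -3.59 to -2.12. Several are testis genes: Ly6k encodes a GPI-anchored protein of spermatocytes needed for sperm migration, Prss50 a testis serine protease, and Meiob, Meioc and Shoc1 act in meiosis. Prss50 (chr9:110857967-110864628 in mm10, Entrez Gene 235631) was at 16.8, 60.7 and 54.7 CPM in the controls and 2.99, 3.86 and 3.78 CPM in the mutants. All 3 mutant libraries lay below all 3 controls, and the fitted level was 8.81% of the control (log2 fold change -3.51 ± 0.19, FDR = 3.38e-08).

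Ly6k (chr15:74796874-74799968) was at 5.91, 16.96 and 12.8 CPM in the controls and 1.17, 1.07 and 0.509 CPM in the mutants, again without overlap, and fell 12.04-fold (log2 fold change -3.59 ± 0.30, FDR = 1.3e-06), with a log2 fold change of -4.23 without replicate 1. Pkd2l1, which encodes a cation channel of the polycystin family, was at 19.4, 19.5 and 13.6 CPM in the controls and 2.72, 4.35 and 2.83 CPM in the mutants and fell to 18.8% of the control level (FDR = 7.5e-08). The X-linked genes Gm364 and Usp26, among the 5 lowest FDRs of the falls, dropped to 27.2% and 41.1% of control. Usp26, a germ cell deubiquitinase, was the more abundant, at 114, 153 and 113 CPM in the controls and 41.2, 71.2 and 46.1 CPM in the mutants (log2 fold change -1.28 ± 0.07, FDR = 2.8e-08). For 10 of these 12 genes the groups were apart. The exceptions were Otud6a and Gm21708, a multicopy Y-linked gene whose reads may be split among near-identical copies and whose control libraries ran from 0.327 to 8.48 CPM, so that its value is uncertain. Leaving out replicate 1 or 2 moved Gm21708 to -4.10 and -2.11 and Gal3st1, at -3.41, to -4.44 and -2.79, and leaving out replicate 1 moved BC051142 to -2.75.

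**Figure D3:**
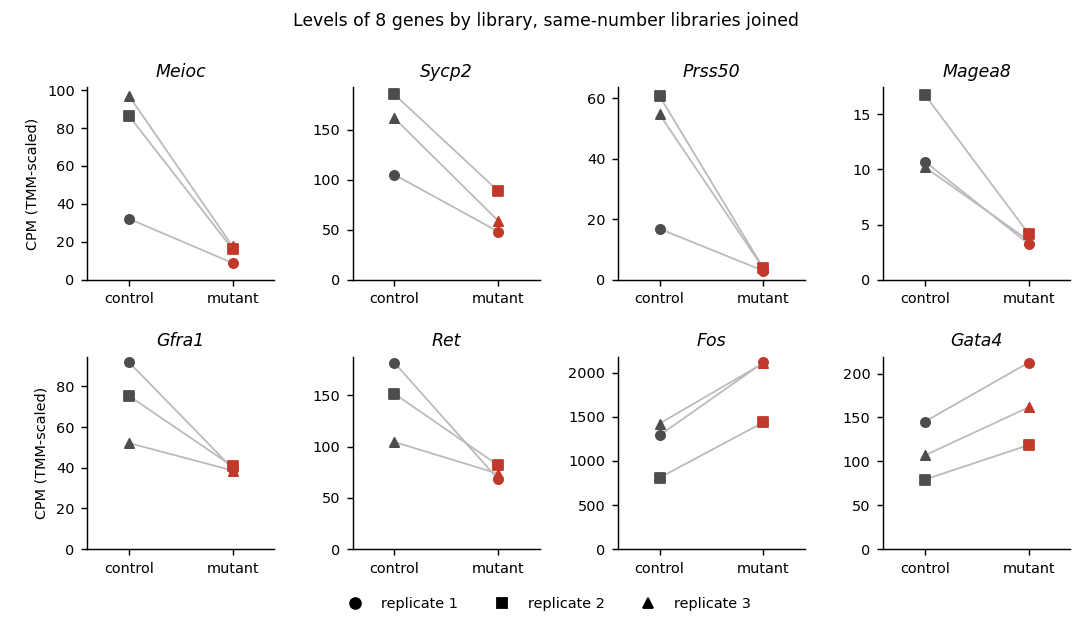
TMM-scaled CPM (vertical axes, each from 0) of Meioc, Sycp2, Prss50, Magea8, Gfra1, Ret, Fos and Gata4 in the 6 Thy1+ libraries, with lines joining libraries of the same replicate number. For 7 of the 8 genes the mutant and control libraries do not overlap; Gata4 rises within each pair while its groups overlap.

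Genes of the meiotic chromosome axis fell almost as a whole. Of the 9 members of the chromosome axis and cohesin list, 8 fell and 0 rose, with a median log2 fold change of -0.88 against 0.03 over all genes, of which 4.92% were called lower. This list holds the proteins that organise meiotic chromosomes into loops along an axis. The count was also 8 without replicate 1, without replicate 2 and without replicate 3. Sycp2, a core axis protein (chr2:178345295-178407658), was at 105, 185 and 162 CPM in the controls and 48.2, 88.8 and 59.1 CPM in the mutants. The mutant libraries were below the controls, at 43.2% of their level (log2 fold change -1.21 ± 0.07, FDR = 4.77e-08). Rad21l, a meiosis-specific cohesin kleisin, was at 9.11, 24.2 and 19.8 CPM in the controls and 4.43, 7.57 and 7.25 CPM in the mutants and fell to 37.8% (log2 fold change -1.40 ± 0.14, FDR = 4.05e-06).

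Rec8, the other meiotic kleisin, was at 23.9, 33.6 and 28.4 CPM in the controls and 11.2, 16.9 and 11.2 CPM in the mutants, with no overlap, and fell to 45.5% (FDR = 1.89e-06). Stag3, the cohesin subunit that binds both, was at 175, 312 and 274 CPM in the controls and 109, 199.7 and 131 CPM in the mutants. Its mutant replicate 2 reached into the control range, but each mutant library was below its own control (log2 fold change -0.79 ± 0.07, FDR = 1.85e-06). The other 4 called were Smc1b, Hormad1, Hormad2 and Sycp3, between -1.11 and -0.67 on the log2 scale, and the remaining member, Trip13, which remodels HORMA-domain proteins, was at -0.20 (FDR = 0.0478).

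In the list of synaptonemal complex centre, crossover and telomere-attachment genes, 10 of 12 fell and 0 rose, with a median of -0.96. Shoc1, a protein of the crossover machinery, was at 14.8, 28.4 and 21.6 CPM in the controls and 3.41, 7.69 and 3.91 CPM in the mutants and fell 4.40-fold (log2 fold change -2.14 ± 0.13, FDR = 7.5e-08). Sycp1, the transverse filament that zips homologues together, was at 115, 192 and 163 CPM in the controls and 70.9, 119 and 73.8 CPM in the mutants, with overlapping groups but a fall in each pair (log2 fold change -0.84 ± 0.08, FDR = 2.06e-06). 4930447C04Rik (Six6os1, a component of the central element) fell to 47.6% and Tex11, an X-linked gene for crossover formation, to 64.7% of control. The complex of Terb1, Terb2 and Majin, which tethers telomeres to the nuclear envelope, fell to 35.4%, 40.4% and 31.2% of control; these 3 were chosen after their values were seen.

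Of 9 genes for the formation of meiotic double-strand breaks, 6 fell and 0 rose (median -0.60). Without replicate 3 the count dropped to 2, with Mei1 at -0.44 and Iho1 at -0.42. Prdm9, the histone methyltransferase that places hotspots, was at 9.44, 34.96 and 32.3 CPM in the controls and 6.37, 6.01 and 7.69 CPM in the mutants, without overlap, and fell to 29.4% (log2 fold change -1.77 ± 0.24, FDR = 6.13e-05). Gm960 (Top6bl, the partner of SPO11) fell to 52.8%, Mei1 to 63.6% and Iho1 to 67.2% of control. For these last 3 the groups overlapped.

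Of 21 recombination and repair genes, 10 fell and 0 rose (median -0.45). Hfm1, a helicase of crossover formation, was at 23.03, 41.96 and 34.7 CPM in the controls and 8.29, 15.4 and 10.3 CPM in the mutants and fell to 34.1% (log2 fold change -1.55 ± 0.10, FDR = 7.5e-08). Dmc1, the meiotic strand-exchange recombinase, was at 32.3, 65.9 and 52.6 CPM in the controls and 21.4, 31.9 and 27.5 CPM in the mutants (log2 fold change -0.86 ± 0.09, FDR = 5.64e-06), and its partner in loading, Hsf2bp, fell to 45.5%. Brca2 was at 139.9, 229.9 and 203 CPM in the controls and 104, 154 and 110.3 CPM in the mutants, with overlapping groups (log2 fold change -0.63 ± 0.07, FDR = 1.04e-05). Mlh3, Mnd1 and Mcm9, which were chosen after their values were seen, lay between 0.02 and 0.15 with no call, so part of the list did not pass the test.

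With the libraries scaled to the pan-germ-cell markers, 4 of 9 axis genes, 6 of 12 synaptonemal complex genes, 1 of 9 break genes and 4 of 21 recombination genes were lower, with medians of -0.44, -0.52, -0.17 and -0.01, and 2 recombination genes were higher.

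Genes of spermatogonial differentiation were split between a few deep falls and many small values. Of 19 tested, 6 fell and 0 rose, with a median of -0.31 (0.13 under germ cell scaling). Meioc (chr11:102665588-102682237, Entrez Gene 268491), which together with YTHDC2 keeps spermatocytes in meiotic prophase, had the lowest FDR of all genes. It was at 32.2, 86.5 and 97.1 CPM in the controls and 8.82, 16.1 and 17.5 CPM in the mutants. No libraries overlapped, the level fell 4.84-fold (log2 fold change -2.27 ± 0.10, FDR = 3.85e-09), and replicate 1 was the lowest of both genotypes.

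Zfp541, a zinc-finger protein of the meiotic prophase, was at 16.4, 30.8 and 24.5 CPM in the controls and 7.17, 13.8 and 8.33 CPM in the mutants and fell to 40.6% (log2 fold change -1.30 ± 0.11, FDR = 1.76e-06). Rhox13, an X-linked homeobox gene, was at 12.2, 22.5 and 22.5 CPM in the controls and 7.44, 11.1 and 7.57 CPM in the mutants, without overlap (log2 fold change -1.10 ± 0.14, FDR = 3.66e-05). The other called members were Prss50, described above, Esx1, an X-linked homeobox gene (-0.95), and Stra8, the retinoic acid target required for meiotic entry, at 136, 342 and 248 CPM in the controls and 119, 246 and 138 CPM in the mutants. The Stra8 groups overlapped, and its fall (log2 fold change -0.50 ± 0.08, FDR = 0.000331) was just past the 0.5 limit. Kit, Sohlh2, Dmrt1 and Ccnd2, chosen after their values were seen, lay between -0.12 and 0.17 with no call.

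Stem cell state genes fell in part. Of 18 tested, 9 fell and 0 rose, against 4.92% over all genes, and the median was -0.60 (-0.16 under germ cell scaling, where 3 were lower and 4 higher). For 8 of the 18 every mutant library lay below every control, against 9.92% of all genes. Foxc2, a forkhead factor of quiescent stem cells, was at 42.3, 30.8 and 19.6 CPM in the controls and 12.2, 15.3 and 10.97 CPM in the mutants and fell to 42.9% (log2 fold change -1.22 ± 0.14, FDR = 1.44e-05). Ret, the signalling receptor for GDNF, was at 182, 152 and 105 CPM in the controls and 68.4, 81.9 and 73.7 CPM in the mutants, and its co-receptor Gfra1 at 91.9, 75.3 and 52.1 CPM in the controls and 39.6, 40.7 and 38.6 CPM in the mutants. Both were lower in every mutant than in any control library (log2 fold change -0.94 ± 0.11, FDR = 1.54e-05 for Ret; log2 fold change -0.85 ± 0.10, FDR = 2.25e-05 for Gfra1).

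Control replicate 1 had the highest level of both receptors, whereas the mutant levels of Gfra1 stayed within 38.6 to 40.7 CPM. Id4, an inhibitor of differentiation that marks stem cells, was at 22.6, 14.2 and 11.2 CPM in the controls and 11.2, 8.01 and 7.53 CPM in the mutants, with overlap (log2 fold change -0.81 ± 0.12, FDR = 0.000154). The other called members were T, Eomes, Nanos2, Lhx1 and Bcl6b, at -1.71, -1.27, -0.82, -0.67 and -0.52. Among the list's members that were not called, chosen after their values were seen, Etv5 was at -0.19, Dusp6 at 0.11, Spry4 at 0.23, Egr2 at -0.06 and Egr3 at 0.22.

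Of 16 genes of undifferentiated progenitors, 7 fell and 0 rose, with a median of -0.38 (0.06 under germ cell scaling). Lin28a, an RNA-binding protein of undifferentiated spermatogonia, was at 142, 158 and 116 CPM in the controls and 47.7, 78.8 and 58.9 CPM in the mutants and fell to 44.04% (log2 fold change -1.18 ± 0.09, FDR = 5.93e-07). Sall4, a transcription factor of the same cells, was at 164, 200.4 and 144 CPM in the controls and 76.9, 128 and 91.5 CPM in the mutants (log2 fold change -0.79 ± 0.07, FDR = 3.23e-06). Igf2bp1, an mRNA-binding protein, was at 121, 163 and 125 CPM in the controls and 68.5, 109.96 and 78.01 CPM in the mutants (log2 fold change -0.69 ± 0.06, FDR = 1.89e-06). Zbtb16 (PLZF), which maintains stem cells, was at 234, 227 and 184 CPM in the controls and 122.9, 164 and 141 CPM in the mutants and fell to 66.1% (FDR = 4.31e-05), and without replicate 1 its log2 fold change was -0.43, short of the 0.5 limit. In all 4 the groups were apart. The remaining called genes were Pou5f1, Upp1 and Nanos3, at -1.58, -1.17 and -0.70.

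The most uniform family was the X-linked Magea genes, which encode cancer-testis antigens. All 7 tested members fell and were below the controls in every library, with a median of -1.79, and all 7 were also called lower without replicate 1, 2 or 3. On the other scale, that of germ cell scaling, the median was -1.35 and 7 were lower. Magea8 was at 10.7, 16.8 and 10.2 CPM in the controls and 3.25, 4.17 and 3.56 CPM in the mutants (log2 fold change -1.76 ± 0.15, FDR = 1.85e-06), Magea5 at 7.74, 11.3 and 9.03 CPM in the controls and 2.43, 3.22 and 2.45 CPM in the mutants and Magea10 at 6.65, 10.5 and 7.92 CPM in the controls and 2.08, 3.22 and 2.19 CPM in the mutants. Each fell to between 28.96% and 29.9% of control. Magea3 was lower still, at 2.31, 3.85 and 3.30 CPM in the controls and 0.400, 0.363 and 0 CPM in the mutants, and its log2 fold change of -3.61 ranged from -2.98 without replicate 3 to -4.29 without replicate 1. These genes share long stretches of sequence, so the split of reads between members is uncertain, while the summed level of the family was 32.8, 51.8 and 37.01 CPM in the controls and 8.98, 13.7 and 9.60 CPM in the mutants.

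Of 18 tested genes of the X-linked Rhox homeobox cluster, 4 fell and 1 rose, with a median of -0.38 (0.06 under germ cell scaling). Rhox7a fell to 35.1% of control and Rhox1 to 53.9%, the latter short of the limit without replicate 1 (-0.46). Rhox8, a gene of Sertoli cells, rose: it was at 99.998, 17.4 and 21.1 CPM in the controls and 144, 43.9 and 43.7 CPM in the mutants (log2 fold change 0.94 ± 0.11, FDR = 1.44e-05), highest in replicate 1 of both genotypes. Members of this cluster also have near-identical copies. Over the whole X chromosome 85 of 712 tested genes (11.9%) were lower and 38 (5.34%) higher, and on the Y chromosome 5 of 15 were lower.

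Genes of the ciliary and flagellar axoneme were also lower in part, with 30% called lower against 4.92% of all genes. Of 40 dynein heavy chain, light chain and Cfap genes, 12 fell and 0 rose (median -0.42, 0.01 under germ cell scaling), and without replicate 3 the count was 7. Dnah5 was at 4.40, 3.50 and 2.60 CPM in the controls and 0.693, 0.590 and 0.318 CPM in the mutants and fell to 15.2% (log2 fold change -2.72 ± 0.30, FDR = 1.13e-05). Dnah8 was the more abundant, at 43.1, 50.9 and 60.7 CPM in the controls and 18.4, 37.6 and 25.5 CPM in the mutants (log2 fold change -0.96 ± 0.12, FDR = 3.09e-05), and Dnah14 and Dnah2 fell to 46.6% and 60.6% of control.

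General germ cell genes were also lower in part. All 11 pan-germ-cell markers had negative values (median -0.44). Of these, 4 were called lower (36.4%, against 4.92% of all genes), and 6 without replicate 2. Germ cell scaling is set by these same 11 genes, so the 0 calls under it follow from its construction. The 4 called were Nxf2, at 59.1% of control, Tex14, at 63.6%, Taf7l, at 64.5%, and Tex19.1, at 68.8%. Nxf2, an X-linked mRNA export factor, was at 139.9, 194 and 141 CPM in the controls and 75.98, 126 and 82.4 CPM in the mutants, the only one of these 4 without overlap. Of 23 piRNA pathway genes, which silence transposons in germ cells, 6 fell (26.1%, against 4.92% of all genes) and 0 rose. Their median was -0.31 (0.13 under germ cell scaling). Tex15, which recruits transposon silencing to the nucleus, was at 312, 584 and 454 CPM in the controls and 162, 289.7 and 176 CPM in the mutants and fell to 46.4% (log2 fold change -1.11 ± 0.07, FDR = 6.88e-08). Piwil1, Gtsf1 and Tdrd5 fell to 63.03%, 64.1% and 65.6%, the last 2 short of the limit without replicate 1 (-0.49 and -0.43), and Piwil4 and Spocd1 were called as well, at -0.63 and -0.80.

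**Figure D4:**
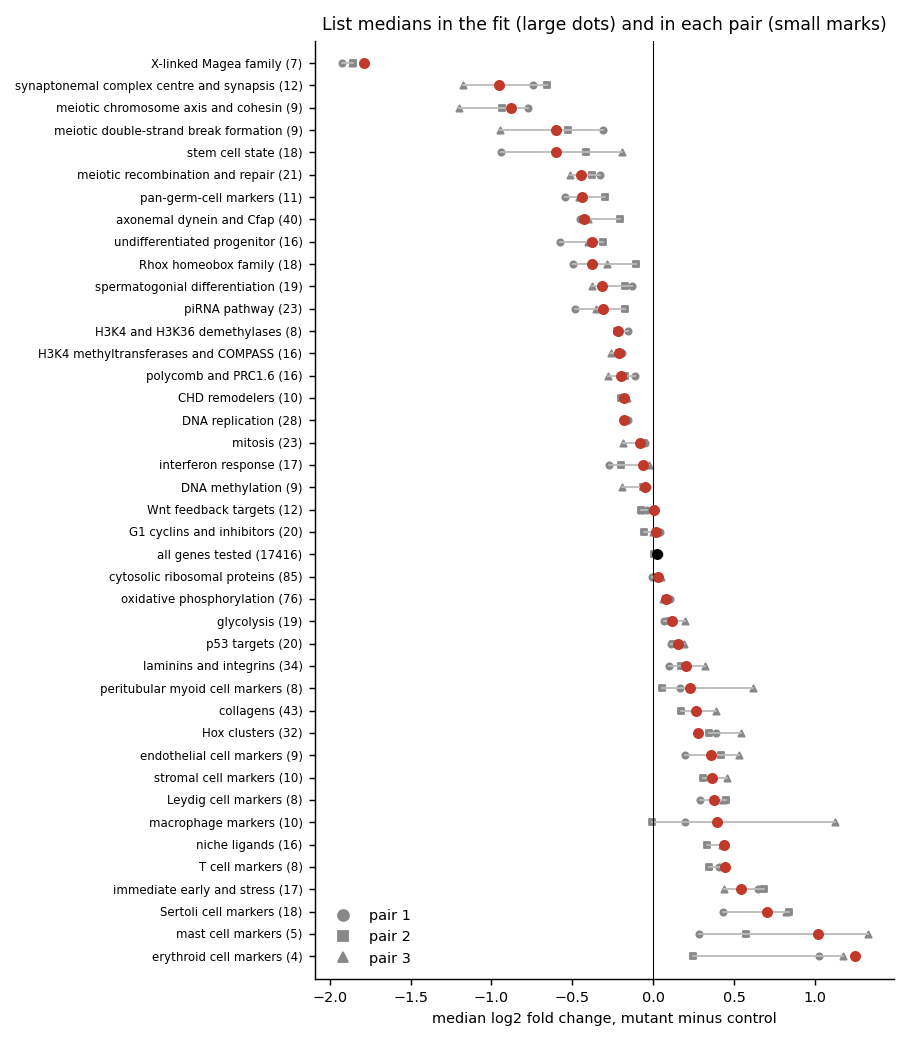
Median log2 fold change, mutant minus control (horizontal axis), of each gene list in the paired fit (large dots) and in each same-number pair (small marks), with the number of tested members after each name. Magea genes lie lowest at -1.79 and the synaptonemal complex and axis lists at -0.96 and -0.88, while Sertoli cell markers lie at 0.71 and immediate early genes at 0.54; all genes tested lie at 0.03.

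Among chromatin regulators the share called lower was 25% of H3K4 methyltransferase and COMPASS genes and 20% of CHD remodelers. It was 12.5% of demethylase and 6.25% of polycomb genes, against 4.92% of all genes. Of 16 H3K4 methyltransferase and COMPASS genes, 4 fell and 0 rose (median -0.21, 0.23 under germ cell scaling), and without replicate 3 the count was 2. Kmt2a, a large H3K4 methyltransferase, was at 291, 301 and 372 CPM in the controls and 193, 209.8 and 192 CPM in the mutants, with no overlap (log2 fold change -0.69 ± 0.07, FDR = 4.72e-06). Kmt2c and Kmt2d, which methylate H3K4 at enhancers, fell to 69.04% and 70.1% of control, and were at -0.46 and -0.30 without replicate 3. Prdm9, described above, was the other call. Core COMPASS subunits such as Wdr5, Rbbp5 and Ash2l, chosen after their values were seen, were at -0.10, 0.03 and -0.07.

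Of 10 CHD remodelers 2 fell: Chd5, a remodeler of later germ cells, at 22.4, 44.6 and 38.5 CPM in the controls and 12.2, 25.5 and 16.5 CPM in the mutants (log2 fold change -0.97 ± 0.10, FDR = 4.72e-06), and Chd7 at 65.8, 71.6 and 52.5 CPM in the controls and 31.2, 49.1 and 30.9 CPM in the mutants (log2 fold change -0.79 ± 0.09, FDR = 1.09e-05). Of 8 demethylases 1 fell, Kdm2b (-0.64), and of 16 polycomb genes 1, Pcgf6, a subunit of the complex that keeps germline genes silent in somatic and stem cells. Pcgf6 was at 40.8, 38.1 and 30.8 CPM in the controls and 23.03, 24.4 and 19.9 CPM in the mutants, without overlap (log2 fold change -0.70 ± 0.08, FDR = 1.71e-05). Of 9 DNA methylation genes 0 were called. Dnmt1 was at -0.22 (FDR = 0.00276) and Dnmt3a at -0.10 (FDR = 0.14).

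Proliferation and housekeeping genes gave few calls. Of 28 DNA replication genes 0 were called, nor any without replicate 1, 2 or 3 (median -0.18, 0.26 under germ cell scaling): Mcm2, a subunit of the replicative helicase, was at 228, 345 and 262 CPM in the controls and 209, 313 and 242 CPM in the mutants (log2 fold change -0.13 ± 0.05, FDR = 0.059), and Mcm6 at -0.10. Of 23 mitosis genes 1 fell, the condensin subunit Smc4, at 151, 206 and 178 CPM in the controls and 112, 119.8 and 115 CPM in the mutants (log2 fold change -0.61 ± 0.06, FDR = 6.35e-06). Of 20 cyclins, inhibitors and G1 regulators 2 fell, Cdkn2b (-0.98) and E2f2 (-0.77, and -0.47 without replicate 3). Cdkn2b, a kinase inhibitor of the INK4 class, was low throughout, at 5.06, 3.18 and 4.08 CPM in the controls and 2.75, 1.61 and 1.91 CPM in the mutants.

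Of 20 p53 targets 0 fell and 1 rose, Btg2, an antiproliferative gene, at 307, 142 and 247 CPM in the controls and 483, 254 and 353 CPM in the mutants (log2 fold change 0.67 ± 0.06, FDR = 1.92e-06). Of 12 Wnt feedback targets 1 rose, Myc, at 44.5, 27.6 and 41.7 CPM in the controls and 59.2, 41.9 and 60.7 CPM in the mutants (log2 fold change 0.52 ± 0.07, FDR = 6.93e-05). The Myc call was not made without replicate 2 (0.45) or replicate 3 (0.50). CHD8 is known to restrain both p53 and beta-catenin. The single calls were 5% of the p53 targets and 8.33% of the Wnt targets, against 3.2% of all genes called higher. Medians were 0.16 for the p53 targets and 0.004 for the Wnt targets, against 0.03 over all genes. Of 85 cytosolic ribosomal protein genes 2 fell, the tissue-restricted paralogues Rpl39l (-0.65) and Rpl3l (-0.87), of which Rpl3l was not called without replicate 1 (-0.62) or replicate 2 (-1.05). Of 76 oxidative phosphorylation genes 1 fell, the testis-type subunit Cox7b2 (-0.64), and of 19 glycolytic genes Aldoc fell (-0.67) and Ldhb rose (0.60). The medians of these 3 lists were 0.03, 0.08 and 0.12. Of 17 interferon response genes Oasl2 (-1.01) and Parp14 (-0.54) fell, the latter not called without replicate 1 (-0.47).

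Most Sertoli cell markers rose in the mutant. Of 18 Sertoli cell markers 13 rose and 0 fell (median 0.71), against 3.2% of all genes. Amh, the anti-Muellerian hormone of immature Sertoli cells, was at 89.7, 20.2 and 18.4 CPM in the controls and 153, 57.2 and 47.3 CPM in the mutants. Replicate 1 was by far the highest of both genotypes, the groups overlapped, and each mutant library exceeded its own control (log2 fold change 1.19 ± 0.10, FDR = 1.92e-06). Gata4, a transcription factor of gonadal somatic cells, was at 145, 79.2 and 107 CPM in the controls and 212, 119 and 162 CPM in the mutants (log2 fold change 0.58 ± 0.05, FDR = 2.24e-06), and Aard at 479.8, 107 and 117 CPM in the controls and 687, 207 and 217 CPM in the mutants (log2 fold change 0.78 ± 0.07, FDR = 1.92e-06). For 0 of the 18 did the mutant and control libraries separate.

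By the rule used above for the falls, the 12 genes that rose furthest were Hsd17b1, Amh, Slc26a7, Edn1, Sel1l3, Vnn1, Bmp2, Serpina3g, H2bc11, Prnd and the 2 unnamed transcripts 4930486L24Rik and 1700125H20Rik, with log2 fold changes of 1.10 to 1.598.

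Sel1l3, with the lowest FDR of the rises, was at 36.7, 12.2 and 11.1 CPM in the controls and 76.1, 31.4 and 27.9 CPM in the mutants, highest in replicate 1 of both genotypes (log2 fold change 1.24 ± 0.09, FDR = 2.94e-07). Bmp2, a secreted growth factor, was at 4.60, 3.98 and 5.38 CPM in the controls and 10.4, 8.98 and 10.7 CPM in the mutants, with every mutant library above every control (log2 fold change 1.11 ± 0.15, FDR = 4.99e-05). Serpina3g, a protease inhibitor, was also apart, at 5.19, 8.21 and 6.95 CPM in the controls and 11.8, 15.7 and 15.8 CPM in the mutants (log2 fold change 1.10 ± 0.13, FDR = 1.5e-05). Prnd, which encodes the prion-like protein doppel of Sertoli and germ cells, was at 1.96, 0.969 and 0.757 CPM in the controls and 3.73, 2.18 and 3.24 CPM in the mutants and rose 2.56-fold (log2 fold change 1.36 ± 0.30, FDR = 0.00274). Hsd17b1 and 4930486L24Rik were not called without replicate 2, where Hsd17b1 dropped from 1.21 to 0.62.

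Immediate early genes are induced within minutes by growth factors, stress and tissue dissociation. Of 17 in the list 10 rose and 0 fell (median 0.54), and for 6 the mutant libraries were all above the controls, against 7.4% of all genes. Fos was at 1290.2, 809 and 1423 CPM in the controls and 2117, 1438 and 2109 CPM in the mutants (log2 fold change 0.70 ± 0.05, FDR = 5.95e-07) and Egr1 at 1356, 866 and 1415 CPM in the controls and 2239, 1491 and 2150.4 CPM in the mutants (log2 fold change 0.70 ± 0.05, FDR = 3.26e-07). Junb, at 597, 362 and 649 CPM in the controls and 973, 642 and 937 CPM in the mutants, and Fosb, at 873, 379 and 719.9 CPM in the controls and 1439, 786 and 1091 CPM in the mutants, rose 1.61-fold and 1.73-fold with overlapping groups. Gem, a GTPase induced in the same way, was at 75.3, 54.1 and 72.5 CPM in the controls and 122, 94.04 and 118 CPM in the mutants (log2 fold change 0.73 ± 0.06, FDR = 7.89e-07). Replicate 2, with the highest germ cell markers and the lowest stromal markers, had the lowest Fos and Egr1 of both genotypes.

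Hox genes, which pattern the body axis, rose for 10 of 32 tested members (31.25%, against 3.2% of all genes). The median was 0.28 with 0 lower, and without replicate 2 the count of rises was 6. The 4 with the lowest FDR were Hoxd4, Hoxd8, Hoxd9 and Hoxd10 of 1 cluster on chromosome 2, with log2 fold changes of 0.55 to 0.62, and Hoxd9 was not called without replicate 3 (0.50). Hoxd8 was at 38.5, 33.9 and 40.8 CPM in the controls and 56.4, 47.8 and 66.7 CPM in the mutants, without overlap (log2 fold change 0.59 ± 0.07, FDR = 2.31e-05). Of 43 collagen genes 8 rose and 3 fell (median 0.26), with 5 and 2 without replicate 3 and 10 and 5 without replicate 1. Col26a1 was at 33.8, 30.2 and 39.5 CPM in the controls and 65.3, 49.1 and 87.5 CPM in the mutants (log2 fold change 0.94 ± 0.08, FDR = 1.85e-06), and Col15a1, Col23a1 and Col4a6 rose to between 144% and 153% of control, Col15a1 not being called without replicate 3 (0.45). Among 34 laminins and integrins Itgb8 rose (0.52) and Itga3 (-0.75) and Lama5 (-0.61) fell, and without replicate 3 the Itgb8 and Lama5 calls were lost.

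Of 16 niche ligands and retinoid enzymes, most of them made by somatic cells, 6 rose and 0 fell (median 0.44). Gdnf, the ligand of the GFRA1 and RET receptors that fell, was at 8.9996, 5.92 and 6.33 CPM in the controls and 20.3, 8.82 and 10.7 CPM in the mutants (log2 fold change 0.85 ± 0.14, FDR = 0.000335). Kitl, the ligand of KIT, was at 180.2, 87.5 and 114 CPM in the controls and 245, 132 and 177 CPM in the mutants, higher in each mutant than in its own control with overlapping groups (log2 fold change 0.55 ± 0.05, FDR = 4.72e-06). Bmp4 was at 19.05, 12.3 and 18.8 CPM in the controls and 28.1, 19.4 and 31.02 CPM in the mutants, without overlap (log2 fold change 0.65 ± 0.09, FDR = 8.35e-05), and Inhba was at 0.52, with no call without replicate 1 (0.47) or replicate 2 (0.46). Gdnf and Kitl are also in the Sertoli cell list. These 6 calls lie beside the summed Sertoli and stromal marker levels given above, which were higher in the mutant library of every pair.

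Markers of other cell types had mostly positive values, with 0 to 2 calls in each list. All Leydig, peritubular myoid, endothelial, macrophage, mast cell and erythroid markers were positive, as were 9 of 10 stromal and 7 of 8 T cell markers. Medians ran from 0.23 (myoid) to 1.25 (erythroid), against 0.03 over all genes. Outside the myoid list 10% to 25% of members were called higher, against 3.2% of all genes. Of 8 Leydig cell markers 2 rose, Nr5a1 (0.56) and Hsd17b3 (0.74), neither of them called without replicate 2. Of 8 peritubular myoid markers 0 were called, with Acta2 at 0.39 and Myh11 at 0.25. Of 10 stromal markers 1 rose, Lum, a matrix proteoglycan, at 51.5, 47.2 and 51.1 CPM in the controls and 87.9, 77.96 and 107 CPM in the mutants (log2 fold change 0.86 ± 0.07, FDR = 1.43e-06). Of 9 endothelial, 10 macrophage, 5 mast cell, 8 T cell and 4 erythroid markers, 1 (Esam), 2 (Adgre1 and Lyz2), 1 (Mcpt4), 2 (Cd3g and Cd4) and 1 (Hba-a1) rose. Each of these 7 calls was lost without at least 1 replicate number, and without replicate 3 the macrophage count was 0 whereas without replicate 2 it was 6. Hba-a1 has a near-identical copy, so its value is uncertain.

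The study's own gene sets were also counted. Of its set for stem cell self-renewal to the start of differentiation, 9 of 99 genes fell and 1 rose (median -0.10), of its set for differentiation to meiotic entry 16 of 97 fell and 1 rose (-0.13), and of its set for meiotic prophase I 12 of 99 fell and 0 rose (-0.09). Under germ cell scaling these 3 medians were 0.34, 0.31 and 0.35. Of 1200 cell cycle genes 80 fell and 31 rose, and of 199 E2F targets 7 fell and 2 rose, shares of 6.67% and 3.52% lower beside 4.92% over all genes. Medians were -0.05 and -0.08. Values were negative for 709 of the 1200 and 135 of the 199, against 8100 of 17416 over all genes. The study reported both sets as down-regulated in Thy1+ cells by gene set enrichment analysis. That is another measure than a count of genes past a limit. The study also listed genes bound by CHD8 that were lower in Thy1+ or in c-Kit+ cells. All 28 of the former and 133 of 445 of the latter were lower here and 0 were higher; the 28 were chosen on these same libraries and are no independent evidence of direction.

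The median control level was 8.98 CPM for genes that fell and 8.84 CPM for genes that rose, against 21.4 CPM over all tested. By control level, 2.04% of genes under 1 CPM fell, 9.49% of those at 1 to 10 CPM, 4.23% of those at 10 to 100 CPM and 2.22% of those over 100 CPM. Median exonic length was 2823 bases for genes that fell, 2511 for genes that rose and 2697 over all, and 91.7% and 93.4% of the called genes were protein-coding against 89.8%.

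The effect was set against that in the c-Kit+ differentiating spermatogonia of the same series, where 1287 of 17134 genes (7.51%) were lower and 2705 (15.8%) higher in the mutant. Whether the effects differed was tested as a contrast between them with the 12 libraries scaled and fitted together, in which the median difference over all genes was -0.09. The Thy1+ effect was below the c-Kit+ effect for 1710 of 18002 genes (9.5%) and above it for 202 (1.12%) at FDR under 0.05. Without the block both counts were 0, with 1804 at an unadjusted p under 0.05. Without replicate 2 they were 318 and 32, and without replicate 3 they were 124 and 8. Of the 856 genes lower in Thy1+ cells, 831 were tested in c-Kit+ cells and 484 were lower there too, and the difference passed for 84 with the lower value in Thy1+ cells and for 31 with the higher.

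Of 17 stem cell state genes tested in c-Kit+ cells, 7 were higher in the mutant and 0 lower (median 0.57), beside 15.8% of all genes higher. Gfra1 was at 3.96 to 4.35 CPM in the c-Kit+ controls, against 53.6 to 94.3 CPM in the Thy1+ controls. Zbtb16 was at 105 to 114 CPM against 189 to 240 CPM. The part of these levels in the differences was not tested. Some stem cell genes had the lower value in Thy1+ cells. Ret was at -0.94 there and 0.05 in c-Kit+ cells (difference -1.05, FDR = 0.00404), Id4 at -0.81 and 0.19 (FDR = 0.0137), and Zbtb16 at -0.60 and -0.09 (FDR = 0.00838). The differences for Gfra1 (-0.70, FDR = 0.0613) and Foxc2 (-1.01, FDR = 0.0679) did not pass. Several meiotic genes went the other way: Meioc was at -2.27 and -2.99 (difference 0.65, FDR = 0.0469), Rad21l at -1.40 and -2.39 (FDR = 0.00672), Dmc1 at -0.86 and -1.69 (FDR = 0.013) and Msh5 at -1.07 and -2.78 (FDR = 0.00191). Of these 7 differences only that of Ret passed without replicate 3, and only those of Rad21l and Msh5 without replicate 2. For Prss50 (-3.51 and -4.48) and Kmt2a (-0.69 and -0.77) the difference did not pass, at 0.91 (FDR = 0.0781) and 0.01 (FDR = 0.955).

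The 5 lowest FDRs with a lower value in Thy1+ cells belonged to Lrp1, Timp2, Nid1, Tns1 and Ktn1, whose effects in Thy1+ cells were 0.13 to 0.26 and in c-Kit+ cells 0.83 to 0.91. Summed stromal markers were 11453 to 14944 CPM in control and 12858 to 19766 CPM in mutant Thy1+ libraries, and 1878 to 2359 CPM in control and 3411 to 4520 CPM in mutant c-Kit+ libraries. The 5 with a higher value in Thy1+ cells were Pbx3, H1f10, Slc9a5, Cd3e and Msh5; Pbx3, a homeobox factor, was at -0.49 and -2.38. Of these 10 genes all but Msh5 passed without replicate 1, without replicate 2 and without replicate 3.

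**Figure D5:**
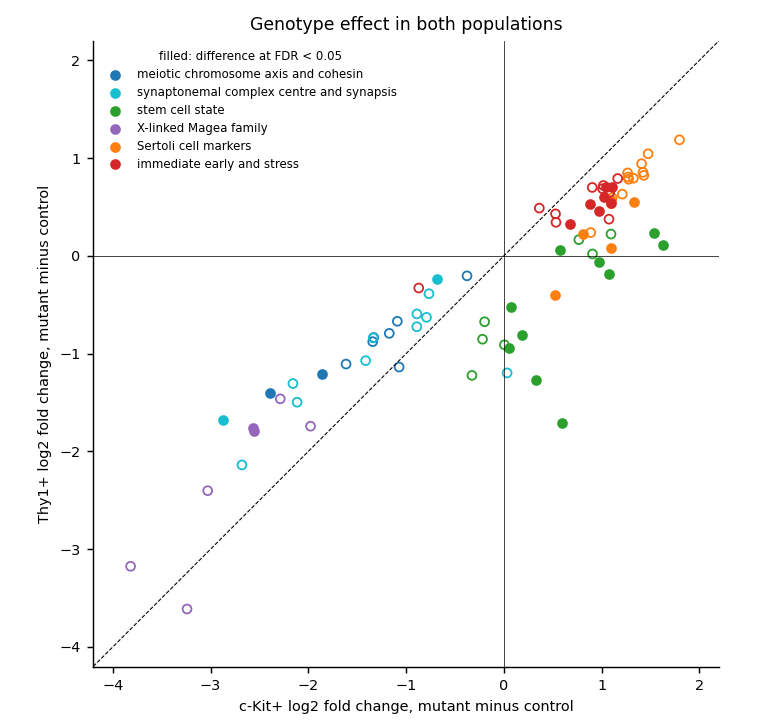
Log2 fold change, mutant minus control, in c-Kit+ libraries (horizontal axis) and Thy1+ libraries (vertical axis) for members of 6 gene lists, with the line of equal effects dashed and filled points where the difference passed FDR 0.05. Ret and Id4 are filled points below the line, and Rad21l, Sycp2, Majin, Magea5 and Magea8 filled points above it.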

How the data were processed

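Poly(A) RNA of MACS-sorted cells was made into directional libraries and sequenced. The authors trimmed reads with Trimmomatic 0.39, aligned them to mm10 with HISAT2 2.1.0 and counted them with featureCounts, and deposited 1 table of raw counts for 12 libraries. Its header names featureCounts version 2.0.3 with paired-end input and no strand setting, so reads from a gene and an antisense partner cannot be told apart, and read pairs appear to have been counted as 2 reads. Symbols were taken from RefSeq (GRCm38.p6) by Entrez Gene number, which matched 25275 of 27179 genes.

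The 6 Thy1+ columns were analysed in edgeR 4.0.16 (R 4.3.3) with filterByExpr, TMM scaling and the quasi-likelihood test, with the replicate number as a block and Benjamini-Hochberg adjustment over all 17416 genes tested. Genes were called at FDR under 0.05 and a log2 fold change beyond 0.5, and values after ± are standard errors. The replicate numbers were taken as pairs because deviations from the group means correlated in all 3 same-number pairs (r = 0.266 to 0.490, against -0.384 to -0.041 for different numbers). Deviations cancel within a genotype, so the negative values for different numbers follow in part from the positive ones. The check used the same 6 libraries as the test and is not independent of it. The script was tested on simulated data. Alternatives were no block, the exact test, DESeq2 1.42.0, limma-voom (limma 3.58.1), other scalings, filters and thresholds, a somatic marker covariate, and leaving out libraries. The comparison, its gene lists and tests were chosen with earlier results of these data known. Named genes are, per list, every called member up to 4 and otherwise the 4 with the lowest FDR, or, where none was called, the 2 most abundant; the 12 largest changes and 5 lowest FDRs in each direction; the 5 lowest FDRs of the c-Kit+ difference in each direction and of the replicate number; and Chd8, Thy1 and Kit. Others are complete enumerations of a list's calls or are marked in the text. Some genes called by these rules are not reported here. The remaining samples of the series were not analysed here.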

Additional observations from a re-analysis of the deposited data

Results flagged for a closer look

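Of the 144 named genes, 50 had an effect of the mutation that differed between Thy1+ and c-Kit+ cells at FDR under 0.05 in edgeR's test of the difference, and 10 of them were named for that difference alone. Values are the Thy1+ effect minus the c-Kit+ effect on the log2 scale. In 37 the Thy1+ effect was the lower. Among germ cell, chromatin, axonemal and interferon genes these were Id4 (-1.06), Ret (-1.05), Zbtb16 (-0.57), Sall4 (-0.41), Pcgf6 (-0.81), Chd7 (-0.69), Kmt2d (-0.67), Dnmt3a (-0.26), Tdrd5 (-0.66), Dnah5 (-1.70), Gm21708 (-3.36), Parp14 (-1.07) and Oasl2 (-0.94). Among somatic, matrix, Hox and immediate early genes, which had positive values in both populations except for Itga3, they were Kitl (-0.85), Gata4 (-0.58), Nr5a1 (-0.62), Cdh23 (-0.73), Ldhb (-0.70), Cpe (-0.66), Esam (-0.83), Inhba (-0.53), Itgb8 (-0.96), Itga3 (-0.60), Col15a1 (-0.54), Col4a6 (-0.50), Col23a1 (-0.35), Hoxd9 (-0.46), Hoxd10 (-0.63), Egr1 (-0.47), Fos (-0.40) and Gem (-0.37). The others were Lrp1 (-0.84), Timp2 (-0.74), Nid1 (-0.72), Tns1 (-0.76), Ktn1 (-0.79) and Myh11 (-0.91).

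In 13 the Thy1+ effect was the higher. Among meiotic and cohesin or condensin genes these were Rad21l (0.92), Msh5 (1.65), Dmc1 (0.76), Meioc (0.65), Sycp2 (0.59) and Smc4 (0.67), and the rest were Magea8 (0.74), Magea5 (0.71), Gm364 (0.75), Pbx3 (1.83), H1f10 (0.77), Slc9a5 (0.90) and Cd3e (2.95). Leaving out replicate 1, 2 or 3 kept 41, 17 and 11 of the 50 past the threshold, and 9 passed each time. The cause of the differences was not tested.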

How the results depend on the processing

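The paired counts of 856 lower and 558 higher fell to 0 and 0 without the replicate block or with the somatic marker covariate in its place, and were 274 and 20 in the exact test without the block, 200 and 41 in glmTreat, 2366 and 2716 with no limit on the fold change, and 300 and 6786 when scaled to the pan-germ-cell list, which also raised the genes with a replicate number effect from 6569 to 12345. DESeq2, limma-voom, the other scalings and filters and the fit of 12 libraries gave 681 to 946 lower and 432 to 603 higher. Leaving out 1 replicate number gave 758 to 812 lower and 420 to 709 higher, and leaving out 1 library 650 to 844 and 402 to 730. Under the block a library without its partner does not inform the genotype effect. Leaving out 1 library is therefore not a separate check from leaving out its pair. The difference from c-Kit+ cells (1710 lower, 202 higher) had 0 and 0 without the block, 539 higher in DESeq2, and 124 to 1691 lower and 8 to 318 higher without 1 replicate number.

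Of the 125 named genes called, 96 were called without each replicate number in turn. With the somatic marker covariate and no block, 16 changed sign, with log2 fold changes of Mei1 0.25, Iho1 0.11, Kitl -0.21, Nr5a1 -0.046, Gata4 -0.078, Cdh23 -0.88, Esam -0.18, Ldhb -0.58, Btg2 -0.055, Hsd17b3 -0.25, Aard -0.78, Tmem114 -0.80, Cst12 -0.93, Rhox8 -0.72, Slc26a7 -0.59 and Amh -0.26, none past the FDR threshold. That covariate is the mean of somatic markers that include Amh, Aard, Gata4, Rhox8, Kitl, Nr5a1, Hsd17b3 and Esam, so for these the change of sign can follow from its construction, and the setting changes the block and the covariate at once. The median changed sign for 19 of 47 lists under germ cell scaling and for 17 of 47 with the covariate, and for 0 to 3 under the other settings. The cause of these changes was not tested. With 3 libraries a group and 2 residual degrees of freedom, small changes of low genes were not detectable.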

Other observations

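The 5 genes with the lowest FDR for the replicate number were all highest in replicate 1 of both genotypes. Cst12, a cystatin of Sertoli cells, was at 97.7, 16.04 and 18.9 CPM in the controls and 155, 35.6 and 39.2 CPM in the mutants, and Tmem114 at 58.1, 11.98 and 12.8 CPM in the controls and 94.9, 24.5 and 23.8 CPM in the mutants. In both genes replicates 2 and 3 lay close together. Cdh23, a cadherin, was at 136, 36.2 and 31.6 CPM in the controls and 182, 56.5 and 53.02 CPM in the mutants, and Cpe, a carboxypeptidase of the secretory pathway, at 318, 100.3 and 122 CPM in the controls and 397, 146 and 180.3 CPM in the mutants. The log2 fold change between genotypes, fitted over the 3 pairs, was 0.93 for Cst12, 0.86 for Tmem114, 0.59 for Cdh23 and 0.47 for Cpe, the last of these not called.

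Among genes named for their difference between the populations, Cd3e, a T cell receptor subunit, was at 1.55, 2.50 and 2.49 CPM in the controls and 0.800, 1.97 and 1.27 CPM in the mutants, with a log2 fold change of -0.73 in Thy1+ and -3.74 in c-Kit+ libraries. Gm21708 on the Y chromosome, uncertain for its near-identical copies, was at 0.327, 8.48 and 2.46 CPM in the controls and 0.240, 0.386 and 0.223 CPM in the mutants. H1f10, a linker histone, was at 52.6, 68.3 and 74.1 CPM in the controls and 49.3, 47.99 and 55.3 CPM in the mutants in Thy1+ libraries, where its log2 fold change was -0.34, and at -1.17 in c-Kit+ libraries.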
